A study of Mus musculus with 18 samples.

Results

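L1 elements (LINE-1, long interspersed nuclear elements) are retrotransposons that copied themselves through RNA for as long as mammals have existed. The deposited repeat tables list 906 repeat subfamilies, and 6 of them are young mouse L1Md subfamilies, some of which can still be transcribed from their own promoters. The older L1 subfamilies described here number 106 of the 906, chosen by annotation alone: class LINE, family L1, and a name that does not begin with L1Md. They were examined in E14Tg2a, a male mouse embryonic stem cell line, with or without Daxx, which encodes a chaperone that places a histone H3 variant at silent repeats together with ATRX.

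The study compared 6 groups of 3 replicates that the labels call independent, wild-type parental and Daxx-null (Daxx-/-) cells in each of 3 cultures. The serum cultures held serum and 1000 units/mL LIF, the cytokine that keeps these cells pluripotent. The 2i cultures held a pair of kinase inhibitors (2i) and 100 µg/mL vitamin C, a medium for ground state pluripotency in which DNA methylation is low. For the retinoic acid cultures, serum-grown cells were kept for 24 h without LIF and then for 4 days with 10 µM retinoic acid, a neural differentiation. The labels state neither the number of Daxx-null clones nor the part of the gene that was removed. RNA was selected with oligo(dT) beads and depleted of ribosomal RNA. No source used here gives the strand setting of the counting, so sense and antisense reads of a repeat cannot be told apart.

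An L1 insertion starts life close to the sequence of its source element and gathers mutations with time, so its divergence from the subfamily consensus serves as a clock. Old copies are mostly short, truncated at the 5′ end and unable to move, and many lie inside introns and untranslated regions of genes, where they are carried in host transcripts. In mouse stem cells, young L1 is held down by DNA methylation, the HUSH complex, TRIM28 with SETDB1, and histone H3 lysine 9 methylation. A value in the deposited tables pools all copies of a subfamily, so copies with a promoter and copies inside genes are not separated.

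The older subfamilies spanned a divergence of 8.0% (L1_Mus1) to 30.4% (L1MEd), with a median of 27.6%. The young L1Md subfamilies ran from 3.6% (L1Md_A) to 13.6% (L1Md_F). The young and older sets are therefore split by name and overlap in divergence. Together they held 756797 annotated copies and 345 Mb of sequence. By name, 28 belonged to the rodent series (Lx, L1_Mus, L1_Mur, L1_Mm, L1_Rod and L1VL), which expanded in rodents, and these held 518508 copies and 283 Mb. The mammalian-wide names were 9 L1MA, 7 L1MB, 10 L1MC, 6 L1MD, 17 L1ME and 21 other L1M subfamilies. The remaining names were 6 HAL1 subfamilies, L1 relatives that keep the first open reading frame and lack the second, and 2 L1P. Cut at tertiles of divergence, the least diverged set had 36 members (up to 26.6%, 27 of them rodent), the middle set 35 (26.7% to 28.4%) and the most diverged set 35 (28.5% to 30.4%). Their median element lengths were 573, 265 and 246 bases.

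Levels were deposited as repeat FPKM, fragments per kilobase of annotated subfamily sequence (copies times mean length) scaled to the reads assigned to repeats. The scale was inferred to be 10 M (mega) reads, so these are not per-million values, and gene FPKM was read on the same scale. A level is therefore a share of the repeat reads of a library and does not follow the total of repeat RNA. The median member had a mean level of 2.07 FPKM over the 18 libraries. Level was weakly related to divergence across the 106 subfamilies (Spearman rho 0.29, a description, since all points share the same libraries). Over all members divergence also went with length (rho -0.55) and with copy number (rho -0.55). Within the 28 rodent names rho with divergence was 0.27 for level, -0.75 for length and 0.28 for copy number. Among the 78 other names it was -0.03, 0.02 and -0.26. The highest level belonged to L1M2b, with only 18 short copies: 324 to 805 FPKM, from 1075 to 1807 recovered counting units per library, a unit being the step by which low values rise. HAL1-2a_MD, with 1302 copies, followed at 15.6 to 34.7 FPKM, and L1MEe, with 1227 copies, at 7.94 to 56.6. The subfamilies with most copies were Lx8 (65407), Lx9 (56621) and Lx7 (42027), all at low levels of 0.870 to 3.37 FPKM.

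**Figure D1:**
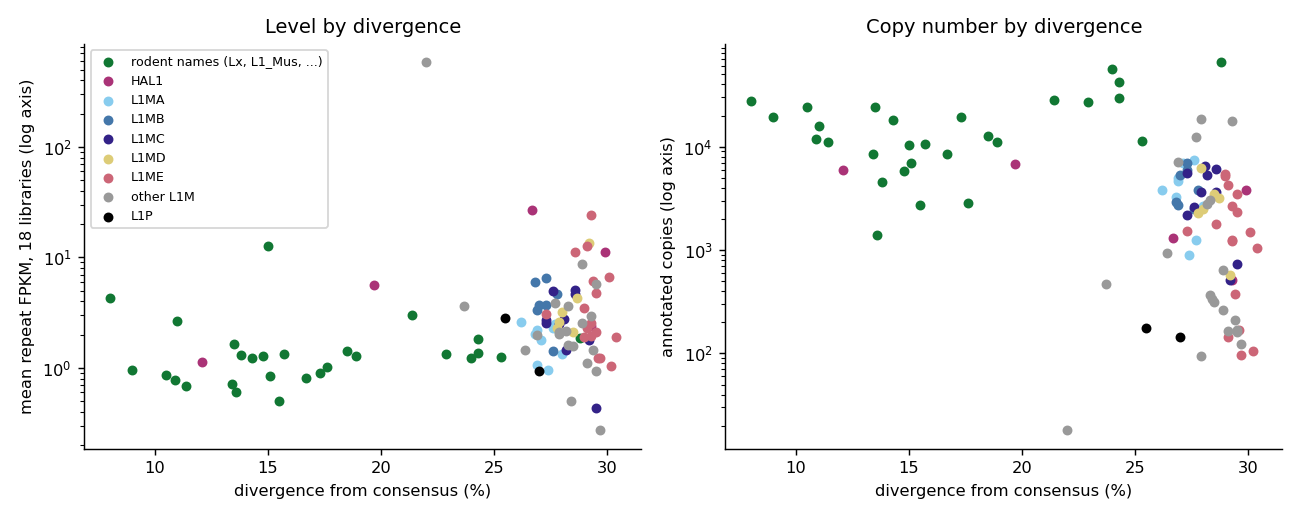
Mean repeat FPKM over 18 libraries (left) and annotated copies (right), both on log axes, against divergence from the consensus in percent, for the 104 subfamilies above 0 in at least 9 libraries, coloured by name class. The rodent names fill the range from 8.0% upwards with many copies, and most of the mammalian-wide names crowd between 26.2% and 30.4%, with L1M2b at 22% among the exceptions.

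The repeat set of a library held 8.04 to 19.0 M (mega) recovered units and the gene set 84.2 to 142 M, and older L1 accounted for 0.693 to 1.26 M units per library. Of the 106 members, 104 were above 0 in every library, and L1M2a1 (9 copies) and HAL1N1_MD (5 copies) were above 0 in too few libraries to be tested. Daxx, on chromosome 17 from 34046390 to 34052535 (mm9), was lower in every Daxx-null library: mean gene FPKM was 326, 420 and 248 in wild-type serum, 2i and retinoic acid cells against 71.5, 56.0 and 61.7 in Daxx-null cells. All 7 pluripotency markers were detected, at a summed 8691 to 25891 gene FPKM in serum and 2i libraries and 554 to 921 with retinoic acid. Neural markers summed to 794 to 1447 with retinoic acid, against 533 to 623 in serum and 255 to 1841 in 2i. Endoderm markers summed to 237 to 543 with retinoic acid (15.1 to 229 in the other libraries). Fibroblast markers summed to 131 to 331 with retinoic acid, against 23.3 to 86.8 in serum and 20.1 to 378 in 2i. No gene of these lists was at 0 in all libraries. The marker sums also differed between genotypes without overlap. In serum, Daxx-null libraries had higher pluripotency sums (21223 to 25891 against 19041 to 19834) and lower endoderm (15.1 to 16.6 against 37.6 to 48.0) and fibroblast sums (23.3 to 28.3 against 51.3 to 86.8). In 2i they had lower pluripotency (8691 to 16085 against 19878 to 21465) and higher endoderm sums (127 to 229 against 34.6 to 69.3), and with retinoic acid lower endoderm sums (237 to 294 against 373 to 543). Libraries in 2i stood apart from their own groups: wild-type library 3 had young L1Md at 10.8% of repeat reads against 18.2% and 17.8%, and Daxx-null library 2 had neural markers at a sum of 1841 against 277 and 255 and fibroblast markers at 378 against 63.1 and 62.0. Y-linked genes summed to 1.20 to 2.68 gene FPKM in Daxx-null serum and retinoic acid libraries but to 173 to 236 in Daxx-null 2i and 155 to 349 in wild-type libraries, so the Daxx-null cells of different cultures also differ in this respect, and its part in the results was not tested. Nothing in the labels says how the replicates were made independent, and p-values measure the spread between these libraries.

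As a share of listed repeat reads, older L1 was lowest in 2i and highest with retinoic acid. The wild-type serum libraries gave 8.21%, 8.30% and 8.34%, the Daxx-null ones 8.15%, 7.96% and 7.95%. Wild-type 2i libraries gave 6.48%, 6.60% and 7.18%, and Daxx-null 2i libraries 7.01%, 7.31% and 6.53%. With retinoic acid the values were 10.3%, 10.4% and 10.1% in wild type and 9.89%, 9.74% and 9.96% in Daxx-null cells. The 3 cultures did not overlap in either genotype, whereas the genotypes overlapped in 2i. In serum and with retinoic acid each Daxx-null library was below each wild-type library, by less than the distance between cultures. Young L1Md moved over a wider range, with 3.68% ± 0.428 (SD, n = 3) in wild-type and 8.06% ± 0.518 in Daxx-null serum, 15.6% ± 4.19 and 19.0% ± 3.58 in 2i, and 3.29% ± 0.0826 and 2.69% ± 0.230 with retinoic acid, where Daxx-null cells were the lower ones.

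A share of repeat reads falls when another repeat rises, so the sum was also set against gene reads. Older L1 made 8.50 ± 0.616 (SD, n = 3) units per 1000 gene-set units in wild-type serum, 8.67 ± 0.395 in Daxx-null serum, 9.20 ± 0.762 in wild-type 2i, 10.6 ± 1.34 in Daxx-null 2i, 6.75 ± 0.191 in wild-type retinoic acid and 6.15 ± 0.133 in Daxx-null retinoic acid cells. On this scale the order of the cultures turned round: retinoic acid was lowest and 2i was highest by its mean, although wild-type serum and wild-type 2i libraries overlapped. Daxx-null serum (8.22 to 8.92) and Daxx-null 2i libraries (9.13 to 11.7) did not. Daxx-null and wild-type libraries overlapped in serum and in 2i. With retinoic acid every Daxx-null library (6.01 to 6.28) was below every wild-type library (6.63 to 6.97), in the same direction as the share.

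**Figure D2:**
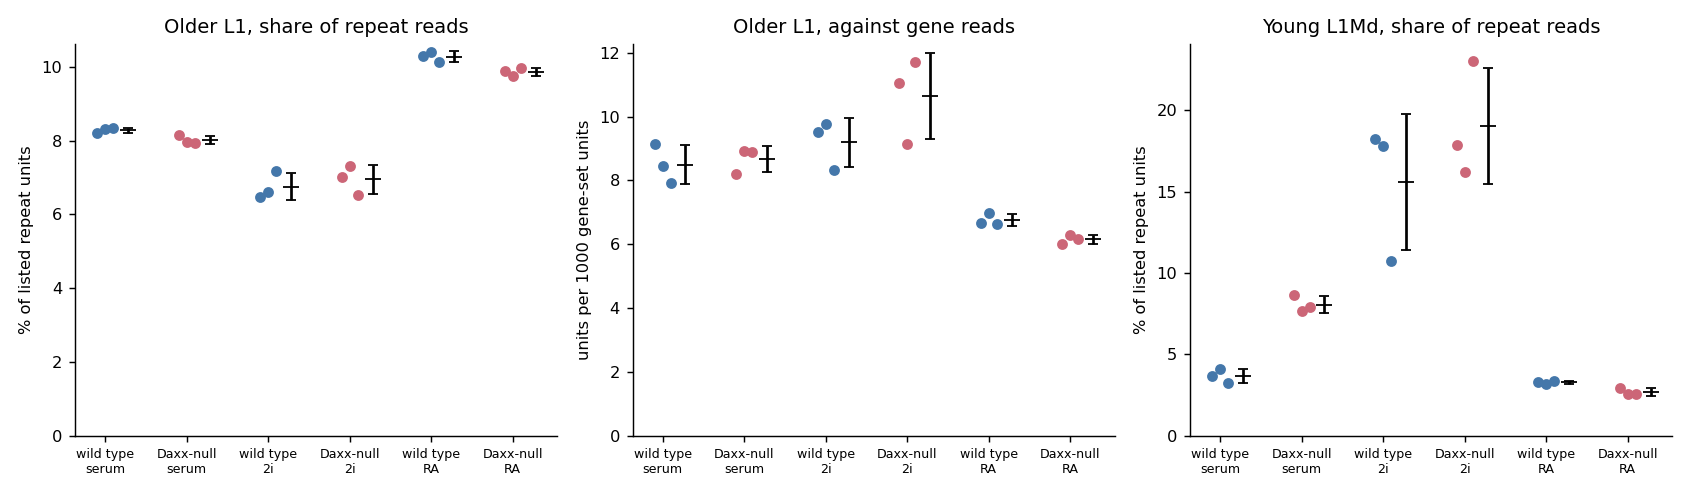
Older L1 as a percentage of listed repeat units (left), older L1 units per 1000 gene-set units (middle) and young L1Md as a percentage of listed repeat units (right), for each of 18 libraries (points) with group mean and SD (black, n = 3). Older L1 is highest with retinoic acid on the left axis, at 9.74% to 10.4%, and lowest there on the middle axis, at 6.01 to 6.97.

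A minority of the subfamilies made most of this signal. L1_Mus1 gave 12.9% of older L1 units, L1_Mur1 11.1% and Lx5 7.01%. The top 10 members gave 55.4% and the top 20 gave 71.8%. The rodent names together took 5.94% of repeat reads in wild-type serum and all other names 2.35%. The rodent names also hold 283 of the 345 Mb of older L1 sequence. L1_Mus1, the least diverged member, stood at 3.64, 3.75 and 4.03 FPKM in wild-type serum and 4.25, 3.73 and 3.83 in Daxx-null serum, overlapping values. L1_Mur1 had a lower share in wild-type 2i, 9.13, 10.0 and 11.6 FPKM against 15.3, 15.8 and 15.4 in serum (limma, log2 difference -0.58, SE 0.156, adjusted p = 0.0054), but the call was lost under other scalings of the libraries (-0.18 to -0.27, adjusted p 0.209 to 0.487).

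Among the 104 tested members, the highest of the 6 group means was a retinoic acid group in 75 (wild type in 60, Daxx-null in 15), and the lowest was a 2i group in 73 (wild type in 58, Daxx-null in 15). Group medians over members followed: 2.13 FPKM in wild-type serum, 1.98 in Daxx-null serum, 1.48 in wild-type 2i, 1.78 in Daxx-null 2i, 2.67 in wild-type retinoic acid and 2.56 in Daxx-null retinoic acid cells. The same count of highest and lowest groups was not made over all subfamilies, so it is not particular to older L1. In wild type, the median log2 difference of retinoic acid from serum was 0.30 for members and for all subfamilies. For 2i from serum it was -0.29 for members and -0.36 for all. All differences below are log2 differences of FPKM plus 0.526 from limma across the 864 subfamilies tested, with Benjamini-Hochberg adjustment over all of them and a call at adjusted p under 0.05. They understate the change of members near 0.5 FPKM.

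In serum, few older L1 subfamilies differed in Daxx-null cells, in both directions. HAL1, L1M2a, L1MEb and Lx2B were higher and L1M3b, L1MCc, L1M3e and L1_Mm were lower, 4 and 4 of 104 members, where 3.59% of all subfamilies were called higher and 7.29% lower. The member median was -0.08 against -0.10 for all subfamilies. Without overlap between genotypes, 15 members were higher and 39 lower (10.4% and 34.7% of all subfamilies). Pluripotency, endoderm and fibroblast marker sums did not overlap between these genotypes either, and their part in the counts was not tested. Under other scalings of the libraries the split was 12 higher and 1 lower (median ratio, 7.18% and 4.05% of all), 13 and 1 (quantile, 6.6% and 5.21%) or 3 and 1 (gene read set, 2.43% and 3.36%). Leaving out any 1 of the 6 serum libraries left 1 or 2 higher and 1 to 3 lower. The 4 members called in the same direction under all 4 scalings were L1M2a, L1MEb and HAL1 (higher) and L1M3b (lower), a rule that 1.97% and 2.66% of all subfamilies met in these directions.

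L1M2a, a mammalian-wide subfamily of 211 copies at 29.4% divergence, had 0.834, 0.729 and 0.873 FPKM in wild-type serum and 1.92, 1.73 and 1.79 in Daxx-null serum. The groups did not overlap, and the means differed 2.23-fold (log2 difference 0.81, SE 0.142, adjusted p = 0.0029). In wild-type 2i it stood at 1.76, 1.48 and 1.24 and in wild-type retinoic acid cells at 1.91, 2.06 and 1.75. Without Daxx it read 1.52, 1.14 and 0.873 in 2i and 1.23, 1.86 and 1.23 with retinoic acid, both overlapping wild type. Wild-type serum had the lowest mean of the 6 groups. The difference of the Daxx effect between 2i and serum was -1.06 (SE 0.201, adjusted p = 0.0031), and between retinoic acid and serum -1.13 (SE 0.201, adjusted p = 0.0059).

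L1MEb, with 375 copies at 29.4%, rose from 4.97, 5.43 and 5.02 FPKM to 8.91, 7.57 and 8.59 in Daxx-null serum, 1.63-fold (log2 difference 0.65, SE 0.148, adjusted p = 0.0135). Its adjusted p was 0.0517 without Daxx-null serum library 1 and 0.0504 without library 3. Daxx-null cells also read higher with retinoic acid, at 11.6, 8.97 and 7.66 against 6.85, 7.64 and 6.34, with no overlap, but that difference did not pass (0.40, SE 0.148, adjusted p = 0.157).

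HAL1, the founding subfamily of its series with 3825 copies at 29.9%, had 16.5, 18.3 and 17.6 FPKM in wild-type serum and 24.8, 21.4 and 22 in Daxx-null serum. In 2i the order was the other way, with 9.50, 9.43 and 8.67 in wild type and 6.21, 7.02 and 5.40 in Daxx-null cells. Neither pair of groups overlapped. The serum difference was 0.37 (SE 0.108, adjusted p = 0.0471) and lost its call when any 1 of the 6 serum libraries was left out (adjusted p 0.0669 to 0.18). The 2i difference was -0.54 (adjusted p = 0.0038), and the difference between the cultures was -0.90 (SE 0.153, adjusted p = 0.0015). HAL1 had 6.13, 6.01 and 6.62 in wild-type retinoic acid cells, well under serum (-1.41, adjusted p = 1.3e-07), and overlapping values of 6.17, 5.17 and 4.39 without Daxx.

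L1M3b moved the opposite way to these. Its 164 copies, at 29.1%, had 3.92, 3.59 and 3.41 FPKM in wild-type serum and 1.29, 1.51 and 1.43 in Daxx-null serum, 2.58-fold lower (log2 difference -1.10, SE 0.204, adjusted p = 0.0038). It was low in every other group: 0.450, 0.451 and 0.948 in wild-type 2i, 0.436, 0.755 and 0.348 in Daxx-null 2i, 0.0755, 0.300 and 0.216 in wild-type retinoic acid and 0.434, 0.217 and 0.0440 in Daxx-null retinoic acid cells. The lowest library held 2 units and the highest 184, so the low groups rest on few reads. Wild-type serum was the group where L1M3b was high, and Daxx-null serum lay between it and the rest without touching either. The difference of the Daxx effect between 2i and serum was 0.98 (SE 0.289, adjusted p = 0.0285), and it was lost without wild-type serum library 1 or 2, Daxx-null serum library 1, wild-type 2i library 1 or 2, or Daxx-null 2i library 2 (adjusted p 0.0525 to 0.0705).

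Of the other serum calls, L1M3e went from 9.81, 9.71 and 10.8 to 7.81, 7.86 and 8.62 FPKM (-0.30, adjusted p = 0.0208) and L1MCc from 2.36, 2.17 and 1.87 to 1.42, 1.47 and 1.63 (-0.38, adjusted p = 0.0299). Neither call held under the 3 other scalings.

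**Figure D3:**
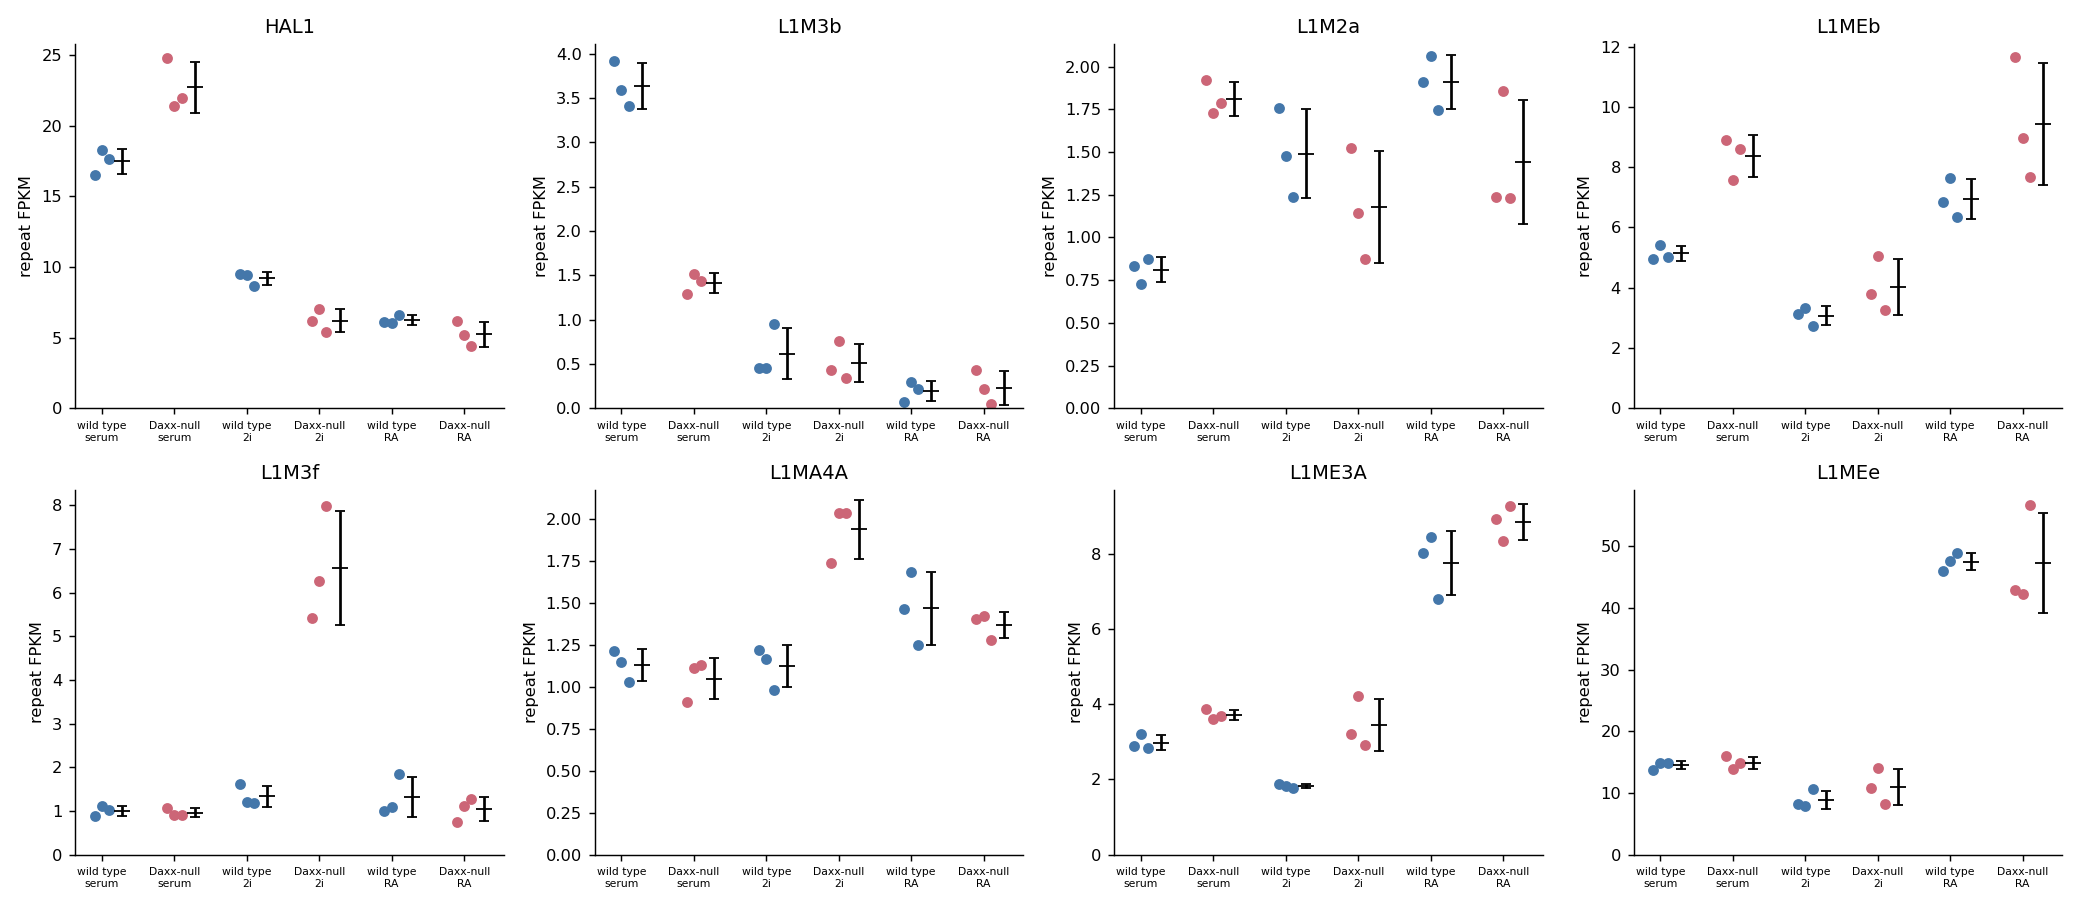
Repeat FPKM of 8 older L1 subfamilies in each of 18 libraries (points), with group mean and SD (black, n = 3) and axes from 0. L1M3b is high in wild-type serum (3.41 to 3.92), L1M3f is high in Daxx-null 2i (5.43 to 7.98), and L1MEe and L1ME3A are high with retinoic acid in both genotypes.

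In 2i, more members were higher without Daxx: 23 higher and 4 lower of 104, against 17.8% higher and 5.44% lower among all subfamilies. The member median was 0.16 against 0.13 over all. Without overlap, 34 were higher and 6 lower (26.0% and 6.83% of all). Pluripotency marker sums were lower and endoderm sums higher in the Daxx-null 2i libraries, with no overlap, and their part in these counts was not tested. The 23 included 14 of the 28 rodent subfamilies, and 15 lay in the least diverged set, 5 in the middle and 3 in the most diverged. Most of the rodent differences were small: Lx3_Mus at 0.45 and Lx2A at 0.30 were the largest of the 14, and Lx4A at 0.16 the smallest. One rodent subfamily, Lx2B, was lower (-0.23, adjusted p = 0.0201).

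These counts turned with the scaling. They were 16 higher and 9 lower under median ratio (12.6% and 15.2% of all), 3 and 20 under quantile (8.45% and 18.3%) and 49 and 3 when set against gene reads (32.1% and 3.59%). The rodent median went with it: 0.18 as deposited, 0.10, -0.04 and 0.30. A fit of the 2i libraries alone called 3 higher and none lower. Without wild-type library 3, 14 were higher and 2 lower, and omitting that library and Daxx-null library 2, an alternative chosen after seeing the data, left 10 and 3. Without Daxx-null library 2 the member median was 0.08 and the rodent median 0.16.

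The 6 members that kept their call under all 4 scalings were L1M3f, L1ME3A and L1MA4A (higher) and HAL1, HAL1-2a_MD and L1MDb (lower), where 7.87% and 3.12% of all subfamilies did so. L1M3f, with only 94 copies at 27.9%, had the largest difference. It read 1.61, 1.20 and 1.18 FPKM in wild-type 2i and 5.43, 6.26 and 7.98 in Daxx-null 2i, 4.93-fold by means (log2 difference 1.92, SE 0.176, adjusted p = 3.2e-06). In the serum and retinoic acid groups it lay between 0.739 and 1.83, with genotypes overlapping, so Daxx-null 2i was the one group where it was high. The difference from the serum effect was 1.97 (SE 0.249), and both calls were kept in every alternative run. Its libraries held 15 to 366 units.

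L1ME3A (2329 copies, 29.5%) went from 1.87, 1.83 and 1.78 to 3.22, 4.22 and 2.91 FPKM in 2i (0.74, SE 0.103, adjusted p = 2.0e-04). Serum pointed the same way with 2.88, 3.21 and 2.85 against 3.88, 3.61 and 3.68, without overlap, but did not pass (0.28, adjusted p = 0.101). L1MA4A (2668 copies, 28%) went from 1.22, 1.17 and 0.981 to 1.73, 2.04 and 2.04 (0.58, adjusted p = 7.5e-04). In serum its genotypes overlapped, and its Daxx effect was larger in 2i than in serum by 0.65 (SE 0.131, adjusted p = 0.0042). For both subfamilies the 2i call was kept in every alternative run.

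The lower calls included HAL1-2a_MD, high in FPKM but with 0.728% of older L1 units. It read 27.9, 28.5 and 31.0 FPKM in wild-type 2i against 17.3, 25.6 and 15.6 (-0.60, SE 0.145, adjusted p = 0.0093). Its Daxx-null library nearest to wild type was library 2, the one with high neural and fibroblast markers. L1MDb read 12.9, 13.7 and 23.7 against 7.37, 12 and 10.2 (-0.71, SE 0.205, adjusted p = 0.0226), where wild-type library 3 was the high one, and without it the difference was -0.44 (adjusted p = 0.0903). Without Daxx-null library 1 the adjusted p of L1MDb was 0.086. In the fit of 2i libraries alone, HAL1, HAL1-2a_MD and L1MDb did not pass (adjusted p 0.0866, 0.158 and 0.197).

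With retinoic acid, almost no member passed: none higher and 2 lower of 104, where 0.116% of all subfamilies were called higher and 1.04% lower. At unadjusted p under 0.05 there were 22 members, 21.2% of those tested, beside 20.9% of all subfamilies. The member median of -0.09 lay beside -0.10 for all subfamilies, and 4 members were higher and 36 lower without overlap (4.63% and 31.5% of all). The pair called were rodent subfamilies. Lx4B went from 1.32, 1.39 and 1.25 to 1.02, 0.991 and 0.905 FPKM (-0.30, SE 0.0622, adjusted p = 0.0315) and Lx3B from 1.71, 1.97 and 1.76 to 1.20, 1.43 and 1.44 (-0.31, SE 0.0706, adjusted p = 0.0500). Both calls were lost under each other scaling, and of all subfamilies 0 were higher and 0.116% lower under all 4. They were also lost when any 1 retinoic acid library was left out, with adjusted p from 0.0518 upwards. Endoderm sums, too, were lower in each Daxx-null library here, and their part was not tested.

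Tested directly, the Daxx effect differed between 2i and serum in 23 members, 20 larger in 2i and 3 smaller, where 17.6% and 4.28% of all subfamilies were called. Y-linked genes summed to 173 to 236 in Daxx-null 2i and 2.18 to 2.68 in Daxx-null serum libraries. Such a difference between the Daxx-null cells cannot be told apart here from a Daxx effect that depends on culture. The medians were 0.21 for members and for all subfamilies alike. The counts were 9 and 6 under median ratio (9.03% and 10.3% of all), 2 and 14 under quantile (6.13% and 10.2%) and 18 and 3 under gene-read scaling (20% and 3.01%). As deposited, 8 to 12 were larger without wild-type serum library 1 or 2, Daxx-null serum library 1, wild-type 2i library 1 or 2 or Daxx-null 2i library 2, each on its own. L1M3f and L1MA4A (larger) and HAL1 and L1M2a (smaller) were called under all 4 scalings, as were 5.56% and 2.31% of all subfamilies. Between retinoic acid and serum, none was larger and 2 were smaller, L1M2a and Lx2B (0.463% and 1.62% of all), with 15 members at unadjusted p under 0.05, 14.4% of those tested beside 14.7% of all subfamilies. L1M2a kept its call under all 4 scalings, where 0.231% of all subfamilies were larger and 0.694% smaller. Young L1Md, by contrast, had a median of -0.86 in that comparison against -0.01 for older L1.

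In wild-type cells, moving from serum to 2i set the least diverged older L1 apart from the rest. Rodent names made up 27 of the 36 members of that set, so its contrast with the others is close to one of names. On the deposited values the median log2 difference was -0.04 for rodent names and -0.39 for all other names. As deposited, 5 members rose and 61 fell of 104, where 9.84% of all subfamilies rose and 50.5% fell. Without overlap, 9 were higher and 68 lower (10.9% and 56.6%). The median was -0.08 in the least diverged set, -0.39 in the middle and -0.47 in the most diverged, against 1.17 for young L1Md and -0.36 for all subfamilies. No young subfamily lay near that median. L1Md_F2, L1Md_F3 and L1Md_F were at 0.12 to 0.42, and L1Md_A, L1Md_T and L1Md_Gf at 1.91 to 2.69, not in order of divergence. The zero point of these differences depends on the scaling, and the counts became 23 higher and 19 lower under median ratio (20.5% and 19% of all), 24 and 30 under quantile (19% and 28%) and 12 and 17 under gene-read scaling (14.6% and 16.8%).

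The order of the sets did not depend on it. The medians of the least, middle and most diverged sets were 0.24, -0.07 and -0.13 under median ratio, 0.21, -0.10 and -0.19 under quantile and 0.21, -0.10 and -0.17 against gene reads. Without wild-type 2i library 3 they were -0.05, -0.42 and -0.47. Across members the difference fell with divergence (Spearman rho -0.40, n = 104), and the relation lay within the rodent series (rho -0.63, n = 28) and not among the other names (rho -0.05, n = 76). These correlations are descriptions over subfamilies of the same libraries, and in the rodent series divergence also goes with shorter elements (rho -0.75). In no other comparison did the correlation with divergence exceed 0.21 in size as deposited.

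The 5 members that rose from serum to 2i under all 4 scalings were the rodent subfamilies Lx, Lx2A and L1_Mus2 and the mammalian-wide L1M2a and L1MB7, where 9.61% of all subfamilies did so. Lx (24366 copies, 13.5% divergence) went from 1.23, 1.27 and 1.12 to 1.56, 1.55 and 1.32 FPKM (0.21, adjusted p = 0.01). L1_Mus2 (9.0%) went from 0.789, 0.805 and 0.758 to 1.06, 1.10 and 0.917 (0.24, adjusted p = 0.0025). Its lowest 2i library was again library 3. L1MB7 rose from 6.11, 5.87 and 6.24 to 6.67, 6.55 and 8.31 (0.22, adjusted p = 0.0427), a call lost without wild-type 2i library 3 (0.11, adjusted p = 0.212) or without wild-type serum library 1, 2 or 3 (adjusted p 0.0616 to 0.117).

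Another 14 of the 104 members fell under all 4 scalings, as did 15.9% of all subfamilies, so the count is near the background. None of the 14 carried a rodent name, a description with no test. Beside L1M3b (-1.89, SE 0.204, adjusted p = 5.8e-06) and HAL1 (-0.89), L1ME5 fell from 3.29, 3.86 and 3.10 to 0.929, 0.518 and 1.25 FPKM (-1.50, SE 0.318, adjusted p = 0.0011). L1PB4, one of the pair with primate-series names, fell from 1.11, 1.40 and 1.03 to 0.252, 0.452 and 0.352 (-0.96, SE 0.168, adjusted p = 0.0003). Neither L1ME5 nor L1PB4 has more than 145 copies. The rest of the 14 were HAL1-3A_ME, L1MB8, L1MC, L1MC2, L1MC4, L1MC4a, L1MD3, L1ME1, L1ME2 and L1ME2z.

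**Figure D4:**
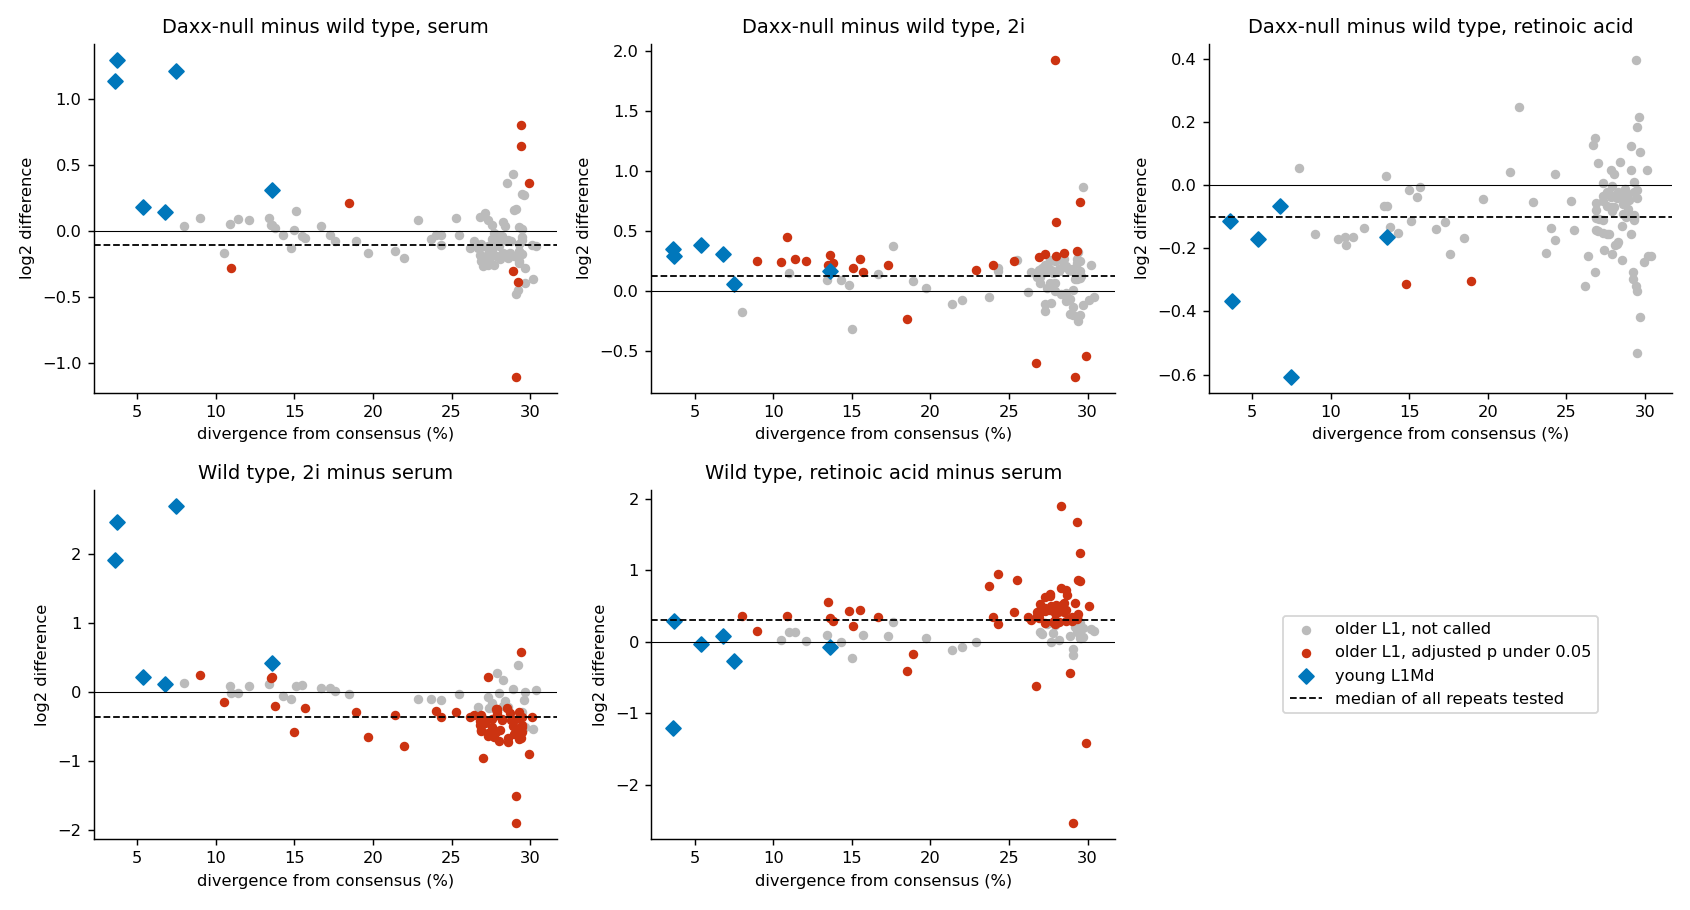
Log2 difference of FPKM plus 0.526 against divergence from the consensus in percent for 104 older L1 subfamilies (grey, or red where called) and 6 young L1Md subfamilies (blue diamonds), in 5 comparisons, each with its own vertical scale. The dashed line is the median of all 864 subfamilies. In wild-type 2i against serum the older L1 medians are -0.08 in the least and -0.47 in the most diverged set. There L1Md_F2, L1Md_F3 and L1Md_F lie at 0.12 to 0.42 and L1Md_A, L1Md_T and L1Md_Gf at 1.91 to 2.69.

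Retinoic acid raised the share of most members in wild-type cells. As deposited, 64 rose and 6 fell of 104, where 50.7% of all subfamilies rose and 8.33% fell, and the median of 0.30 equalled that of all subfamilies. Without overlap, 73 were higher and 8 lower (59.6% and 11.0%). Set against gene reads the direction turned, with 6 higher, 27 lower and a median of -0.15, while median ratio gave 21 higher and 22 lower and quantile 25 and 18. Of all subfamilies, 11% were higher and 32.1% lower against gene reads, 20.3% and 22.5% under median ratio and 20.3% and 22.8% under quantile. The sets showed no order by divergence, at 0.24, 0.40 and 0.30 from least to most diverged.

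The 6 members that rose with retinoic acid under all 4 scalings were L1M6, L1MEe, L1ME3A, Lx7, L1M4c and L1ME4a, beside 11.0% of all subfamilies. L1M6 (370 copies, 28.3%) went from 0.50, 0.567 and 0.712 to 3.79, 3.35 and 3.79 FPKM, 6.15-fold by means (1.90, SE 0.156, adjusted p = 2.2e-07). L1MEe went from 13.8, 14.8 and 14.9 to 46.0, 47.6 and 48.9, 3.28-fold (1.68, SE 0.161, adjusted p = 1.2e-06). L1ME3A, the subfamily that was higher in Daxx-null 2i, went from 2.88, 3.21 and 2.85 to 8.02, 8.45 and 6.80, 2.60-fold (1.24, SE 0.103, adjusted p = 2.6e-07). Lx7, one of the 3 most numerous subfamilies, went from 1.40, 1.42 and 1.23 to 3.19, 3.18 and 2.89 (0.95), alone among the rodent names in rising under every scaling. In Daxx-null retinoic acid cells these 4 read 2.58 to 3.57, 42.3 to 56.6, 8.36 to 9.28 and 3.07 to 3.37, each overlapping wild type.

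The 6 members that fell under all 4 scalings were L1M3b, HAL1, HAL1-2a_MD, L1M7, Lx2B and Lx4B, beside 8.22% of all subfamilies. HAL1-2a_MD went from 33.1, 33.8 and 34.7 to 22.1, 21.1 and 22.3 FPKM (-0.62, SE 0.145, adjusted p = 0.0023), and L1M3b from 3.41 or more to 0.300 or less (-2.54, adjusted p = 2.0e-07), 18.4-fold by means. L1MEd, the most diverged member at 30.4%, read 1.84, 2.07 and 1.82 in wild-type serum, 1.94, 1.96 and 1.99 in 2i and 2.03, 2.34 and 2.14 with retinoic acid, and was called in none of the 7 comparisons.

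**Figure D5:**
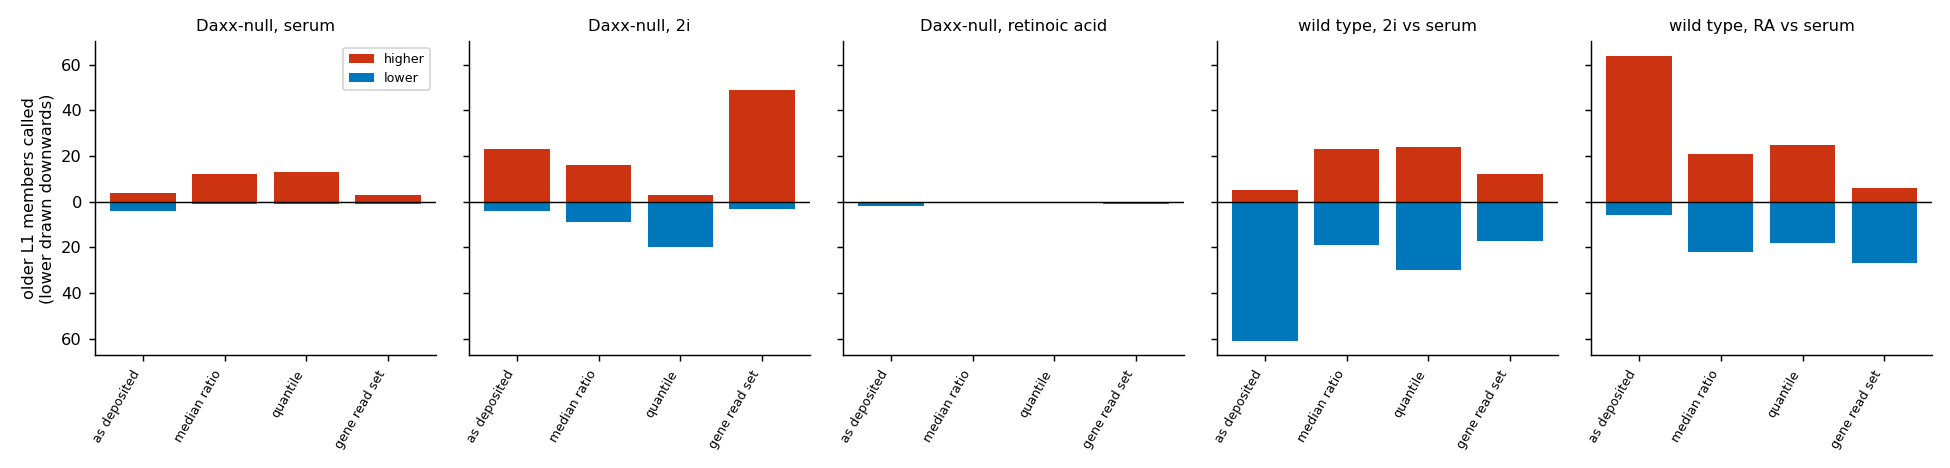
Number of older L1 subfamilies called higher (red, upwards) and lower (blue, downwards) at adjusted p under 0.05 of 104 tested, in 5 comparisons and under 4 scalings of the libraries. With retinoic acid in wild-type cells the bars change from 64 higher and 6 lower as deposited to 6 higher and 27 lower against gene reads.

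The genes that silence L1 or restrict its RNA were taken from a list of 44 symbols, of which 41 matched and were tested among 18002 genes by limma on log2 gene FPKM plus 0.5. In Daxx-null serum cells 10 rose and 3 fell (28.2% of all genes were called in either direction), in 2i 9 rose and 12 fell (46.8%) and with retinoic acid 1 rose and 6 fell (2.49%). The genes that fell include Daxx itself in every culture, a call fixed in advance by the knockout. Beside Daxx itself (-2.18 in serum, -2.89 in 2i and -2.00 with retinoic acid), the largest changes in serum were Zc3hav1, a zinc finger protein that binds foreign and L1 RNA (-0.89, SE 0.18, adjusted p = 0.0018), and Atf7ip, a partner of SETDB1 (0.77, SE 0.144, adjusted p = 0.0011). In 2i they were Dnmt3l, a cofactor of DNA methylation in the germ line, at 263, 355 and 131 gene FPKM in wild-type and 140, 39.5 and 95.6 in Daxx-null libraries (-1.50, SE 0.501, adjusted p = 0.0221), which overlapped, and Mael, a germ line piRNA factor, at 45.4, 40.8 and 22.6 against 118, 71.3 and 99.1 (1.42, SE 0.274, adjusted p = 6.2e-04). With retinoic acid they were Dnmt3l, at 14.4, 16.3 and 62.2 against 1.74, 3.19 and 1.75 (-3.24), and Tex19.1, which restrains L1 in germ cells and placenta, at 23.1, 21.5 and 40.0 against 4.96, 3.46 and 2.99 (-2.71). The retinoic acid effects fell on genes that were already far below their serum level, 690 to 763 for Dnmt3l in wild-type cells. Whether any of these changes had a part in the levels of older L1 was not tested.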

How the data were processed

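RNA was sequenced in 18 libraries, and reads were aligned to mm9 with Bowtie2 2.2.6 and counted with HOMER 4.8, with limma also named, per the submitters' processing notes. The authors deposited repeat FPKM per subfamily and gene FPKM per transcript for each library. Low repeat values times copies times length were whole multiples of 1 unit (within 0.1), which gave depth on an inferred scale of 10 M (mega) reads. Here, limma 3.58.1 (R 4.3.3) with trend was fitted to log2(FPKM + 0.526), the 5th percentile of values above 0, over 864 subfamilies above 0 in at least 9 libraries, with 6 group means and 7 comparisons, and Benjamini-Hochberg adjustment over all subfamilies. Genes needed FPKM of at least 1 in 3 libraries. The fit was tested on simulated data. Alternatives were other pseudocounts, filters, scalings (median ratio, quantile, gene read set), sample sets, a replicate block and left-out libraries. Named members were the 3 highest and 3 lowest called per comparison without overlap of libraries, the 2 highest and 2 lowest per difference between cultures, the 3 at each end of divergence, and the 3 of highest level and of most copies. Others that make up a count or a list kept under all scalings were named after their values were seen. The members and lists were chosen with earlier results of these data known. Consensus sequences of the subfamilies were not used here.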

Additional observations from a re-analysis of the deposited data

Results flagged for a closer look

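The Daxx effect differed between cultures for these members by limma's test of the difference itself. Daxx-null 2i and Daxx-null serum cells also differed in Y-linked genes. For 2i against serum, that difference cannot be told apart from a Daxx effect that depends on culture. For L1M2a, the effect was lower in 2i than in serum by a log2 difference of -1.055 and lower with retinoic acid than in serum by -1.126, and both passed in all alternatives run. For HAL1 the difference between 2i and serum was -0.9017 and for L1M3f it was 1.971, and these too passed in all alternatives run. For L1M3b it was 0.9758, which did not pass under quantile normalization (adjusted p = 0.154) or without 1 of 6 single libraries. For Lx2B the difference between retinoic acid and serum was -0.379 (adjusted p = 0.0489), and it passed in 3 of 19 alternatives.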

How the results depend on the processing

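Counts of older L1 members called are given as higher and lower, and the causes of their moves were not tested. Quantile normalization gave 13 and 1 for Daxx in serum, 3 and 20 in 2i, 0 lower with retinoic acid, 2 and 14 for 2i against the serum effect, 1 higher for retinoic acid against the serum effect, 24 and 30 for wild-type 2i and 25 and 18 for wild-type retinoic acid. Median-ratio scaling gave 12 and 1, 9 lower in 2i, 0 lower with retinoic acid, 9 and 6, 1 higher, 23 and 19, and 21 and 22 in the same order. Against gene reads there was 1 lower in serum, 49 higher in 2i, 1 lower with retinoic acid, 1 higher for retinoic acid against the serum effect, 12 and 17, and 6 and 27. With no filter, serum had 2 higher, retinoic acid 1 lower and its difference from serum 1 lower. A pseudocount of 1 gave 1 higher there. Fits of only the groups compared gave 3 and 0 in 2i, 0 lower with retinoic acid, 8 higher for 2i against the serum effect, 1 higher for retinoic acid against it, and 2 higher in wild-type 2i. Omitting both wild-type 2i library 3 and Daxx-null 2i library 2 (added after seeing the data) gave 10 higher in 2i, 5 lower against the serum effect and 8 higher in wild-type 2i. Same-numbered libraries correlated between -0.15 and 0.28, and in each of 5 comparisons at least 1 of 3 pairs was not above 0.1, so the numbers were not taken as pairs. In Daxx serum each library correlated best with its own number (0.060, 0.066 and 0.080), a hint from the data only. The replicate block gave 0 lower with retinoic acid and 1 lower for its difference from serum. Leaving out each library gave 1 to 2 higher and 1 to 3 lower in serum, 14 to 32 and 2 to 6 in 2i, 0 and 0 with retinoic acid, 8 to 25 and 3 to 4 for 2i against the serum effect, 0 to 1 and 1 to 2 for retinoic acid against it, 3 to 7 and 56 to 64 in wild-type 2i and 57 to 60 and 4 to 6 in wild-type retinoic acid. Of 32 differences of named members, 19 kept direction and call in all alternatives and none reversed. Few units limit L1M3b, L1M3f and the other members of few copies.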
